A study of Mus musculus with 8 samples.

Results

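Nuclear-encoded subunits of the respiratory chain were followed over the day in crypts isolated from the mouse colon. The 79 subunit genes were taken by their names from a table of 14247 genes. They comprised 37 genes of complex I (Ndufa, Ndufb, Ndufc, Ndufs and Ndufv), the 4 genes of complex II (Sdha to Sdhd), 8 of complex III (Uqcr), 13 of complex IV (Cox4 to Cox8) and 17 of complex V (Atp5). Assembly factors with Ndufaf names and pseudogenes were left out by the rule, which used no measured value. Bulk RNA-seq was available from wild-type mice at zeitgeber time (ZT) 0, 6, 12 and 18, with 2 libraries per time point and 8 in all, so each comparison asks whether transcript levels changed with the time of day. ZT0 is the start of the light, resting period and ZT12 the start of the dark, active period. The mice were of the C57BL/6 background and 2 to 4 months old, as its methods state. None of the 8 libraries came from a knockout or a treated animal. Crypts were released with EDTA and scraping, a procedure that enriches the epithelium without sorting it. The labels give no animal for a library, so that the p-values measure the spread between libraries, which may be partly technical. The figure legends of the study count mice, and more of them per time point than the 2 libraries used here.

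The respiratory chain sits in the inner mitochondrial membrane. Complexes I and II pass electrons from NADH and succinate to ubiquinone, complex III passes them on to cytochrome c, and complex IV hands them to oxygen, while complex V, the ATP synthase, uses the resulting proton gradient to make ATP. All of these complexes except complex II are built from subunits of both the nuclear and the mitochondrial genome, and absorptive colonocytes are known for oxidising butyrate through this chain. The promoters of many nuclear subunit genes are known to hold sites for the transcription factors NRF1, GABP (an ETS factor) and YY1.

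Those sites are shown first, because they are a feature that the choice of genes by name did not use. In promoter windows of 300 bases (250 before and 50 after the start, RefSeq, GRCm38.p6), available for 66 of the 79 genes, letters were searched on both strands, each motif being counted separately also where it overlapped another. The NRF1 letters GCGCANGCG were found in 20 of 66 genes (30.3%), in any window of a gene, against 7.03% of 27025 genes. The 27025 are all genes with a window and not only the 13503 tested here. Shares over the tested genes alone were not computed. The GABP letters CCGGAAG were found in 17 (25.8%, against 9.93%), and the YY1 letters AAGATGGCG in 7 (10.6%, against 1.64%). Clock-related letters were not more frequent than over the 27025 genes. The E-box CACGTG, bound by BMAL1 and CLOCK, was found in 5 of 66 genes (7.58%, against 8.09%). The D-box TTATGNAA was found in 2 (3.03%, against 3.99%). These matches are descriptions of sequence and not measurements of binding. For each complex, the sites of the 2 most abundant genes that had an NRF1, GABP or YY1 match outside any annotated exon are printed here with 20 bases on each side. No gene of complex II and 1 gene each of complexes III and IV met this condition. The matched letters are in capitals, and each sequence is written on the strand of its gene.

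Ndufs5 (complex I, NRF1, chr4:123718256-123718304, minus strand): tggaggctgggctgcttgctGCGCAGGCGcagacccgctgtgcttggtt
Ndufb4 (complex I, NRF1, chr16:37654531-37654579, minus strand): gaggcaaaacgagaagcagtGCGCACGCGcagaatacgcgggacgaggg
Uqcr11 (complex III, GABP, chr10:80406861-80406907, minus strand): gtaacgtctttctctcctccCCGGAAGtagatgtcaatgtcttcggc
Cox6a1 (complex IV, NRF1, chr5:115349047-115349095, minus strand): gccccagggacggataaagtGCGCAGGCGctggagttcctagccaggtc
Atp5h (complex V, NRF1, chr11:115420032-115420080, minus strand): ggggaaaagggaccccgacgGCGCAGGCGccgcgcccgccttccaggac
Atp5e (complex V, GABP, letters on the other strand, chr2:174464177-174464223, minus strand): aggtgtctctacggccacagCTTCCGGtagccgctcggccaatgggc

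All 79 genes passed the filter of a mean of at least 10 normalised counts, as did 13503 of the 14247 genes. No gene among the 14247 had a mean below 6.55, so that passing was nearly fixed beforehand. A normalised count is the read count divided by a size factor of the library. The libraries held between 14722342 and 25159440 reads, and the 79 genes took 1.63% to 1.93% of the reads outside the mitochondrial genome. All 10 epithelial markers (among them Epcam, Cdh1 and Vil1) were present in every library, with a summed level of 304954 to 421933 normalised counts. Colonocyte markers (6 of 6) summed to between 172787 (ZT0 replicate 1) and 251577 (ZT12 replicate 2). Goblet cell markers (7 of 7) ran from 257793 (ZT0 replicate 2) to 507292 (ZT18 replicate 1). For stem and proliferating cells (7 of 8) the range was 5446 to 8852, and for enteroendocrine cells (6 of 6) 1511 to 7342.5. The part of these differences in the subunit levels was not tested. Markers of smooth muscle, 6 of 8 listed genes, summed to 3858 in ZT12 replicate 1 and to between 35.4 and 476 in the other libraries, and 4 of them (Acta2, Actg2, Cnn1 and Des) were at 0 in at least 1 library. Fibroblast markers (7 of 7) summed to 2574 in ZT12 replicate 1 and to 188 to 822 elsewhere. B and plasma cell markers (6 of 7) summed to 1937 in ZT0 replicate 2, 1271 in ZT12 replicate 1 and 135 to 522 elsewhere. Myeloid markers (6 of 7) were highest in ZT0 replicate 2, at 1885, and lay between 629 and 1114 elsewhere. In bulk samples, fewer cells of a type and less RNA per cell cannot be told apart.

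Levels between genes were compared as normalised counts per kilobase of transcript, averaged over the 8 libraries. The median was lowest for complex I (1953), followed by complex II (3135), complex III (4279), complex V (5084) and complex IV (5939). Except in complex II, the levels within a complex spread over a wider range than these medians. In complex I the level ran from 123 for Ndufb2 to 6742 for Ndufa6, both accessory subunits. Ndufb2 was scaled by an annotated length of 2413 bases. By mean normalised count alone it stood at 298, above Ndufb6 at 253. In complex IV it ran from 121 for Cox6b2, the testis isoform, to 23111 for Cox6a1, the ubiquitous isoform of subunit VIa. In complex V it ran from 621 for Atp5l to 13675 for Atp5b, the catalytic beta subunit. Where the position of reads could not be unique the level is uncertain. This held for 69.0% of the 100-base stretches of Atp5l and 86.4% of those of Atp5g2, which also occurred in another gene. More than 10% were shared in this way in 16 of the 79 genes. Among the 16 are Ndufb4 (33.4%), Atp5h (22.8%), Uqcrc2 (22.7%), Uqcrb (15.8%) and Ndufs5 (13.9%), whose values below carry the same limit.

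**Figure D1:**
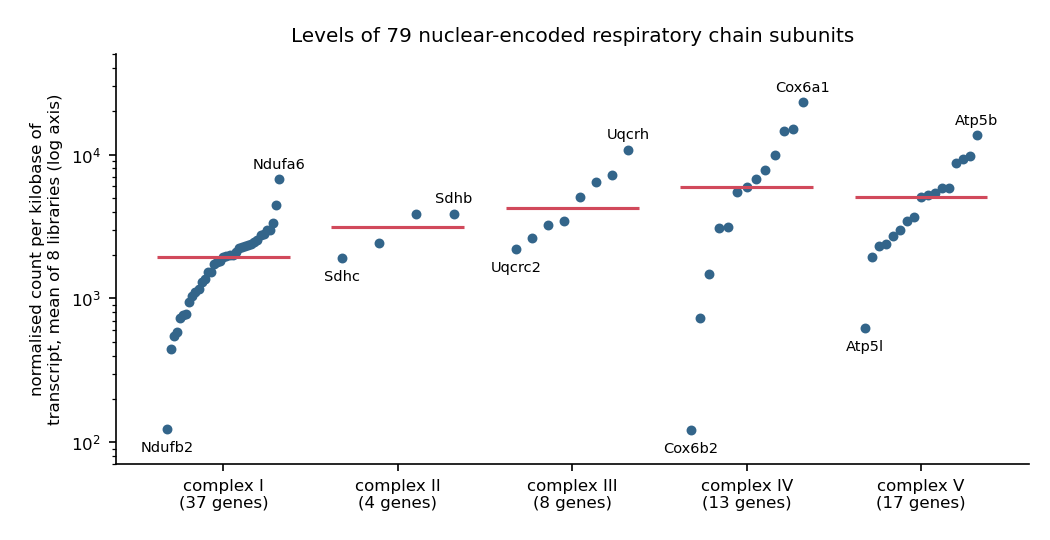
Normalised counts per kilobase of transcript, averaged over the 8 libraries, on a log axis, with 1 point per gene and a red line at the median of each complex. Complex I had the lowest median (1953) and complex IV the highest (5939), and the genes of complex IV span 121 (Cox6b2) to 23111 (Cox6a1).

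For the Cox6b and Cox7a isoforms, the ubiquitous form had the higher level. Cox6b1 stood at 9921 normalised counts per kilobase against 121 for Cox6b2. Cox7a2, the general isoform of subunit VIIa, stood at 5481, Cox7a2l at 3092, and Cox7a1, the isoform of heart and skeletal muscle, at 724. Of the 3 genes for the c subunit of the ATP synthase ring, Atp5g3 was at 9821, Atp5g2 at 2298 and Atp5g1 at 1934. The order of the last 2 depended on the annotated lengths used, 586 bases for Atp5g2 and 2675.5 for Atp5g1. Not scaled for length, Atp5g1 had the higher mean normalised count, 5173 against 1346 for Atp5g2. Values for Cox4i2, Cox6a2, Cox7b2, Cox8b, Cox8c and Ndufa4l2 were not analysed here.

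No subunit gene passed any of the 8 tests for a change with time of day. With limma and Benjamini-Hochberg adjustment over 13503 genes, 0 of 79 were called in the 24 h cosine fit, where 16 genes (0.118%) were called in all, and 0 of 79 in the F-test over the 4 time points, where 0.0889% of genes were called. The counts were also 0 of 79 in the contrasts of ZT6 against ZT0 (0.0444% of all genes called), ZT12 against ZT0 (0.0667%), ZT12 against ZT6 (0%), and ZT18 against each of ZT0 (0%), ZT6 (0.0444%) and ZT12 (0.0296%). With so few genes called in all, a count of 0 among 79 is near the background. At an unadjusted limma p under 0.05 there were 3 subunits in the cosine fit and 0 in the F-test, and in the contrasts, in the same order, 2, 2, 3, 0, 2 and 3. The shares of the subunits ran from 0% to 3.80%, against 9.15% of all genes in the cosine fit, 7.03% in the F-test and 4.13%, 9.96%, 6.78%, 5.02%, 6.71% and 9.03% in the contrasts. DESeq2 called 217 genes in its test over the time points and 131 for ZT12 against ZT0, and edgeR's quasi-likelihood test was also run. Neither called a subunit in any test.

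The tests had limited reach. The median half-width of the 95% interval of a contrast was 0.49 on the log2 scale over the subunits, and it differed from gene to gene. The fitted amplitude, the height of the 24 h cosine above its mean level on the log2 scale, had a median of 0.14 over the subunits, against 0.23 over all genes tested and 0.16 over the 3558 genes with a mean of at least 1000. The highest library exceeded the lowest by a median of 1.57 times, from 1.13 times for the steadiest gene to 3.98 times for Cox6b2.

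**Figure D2:**
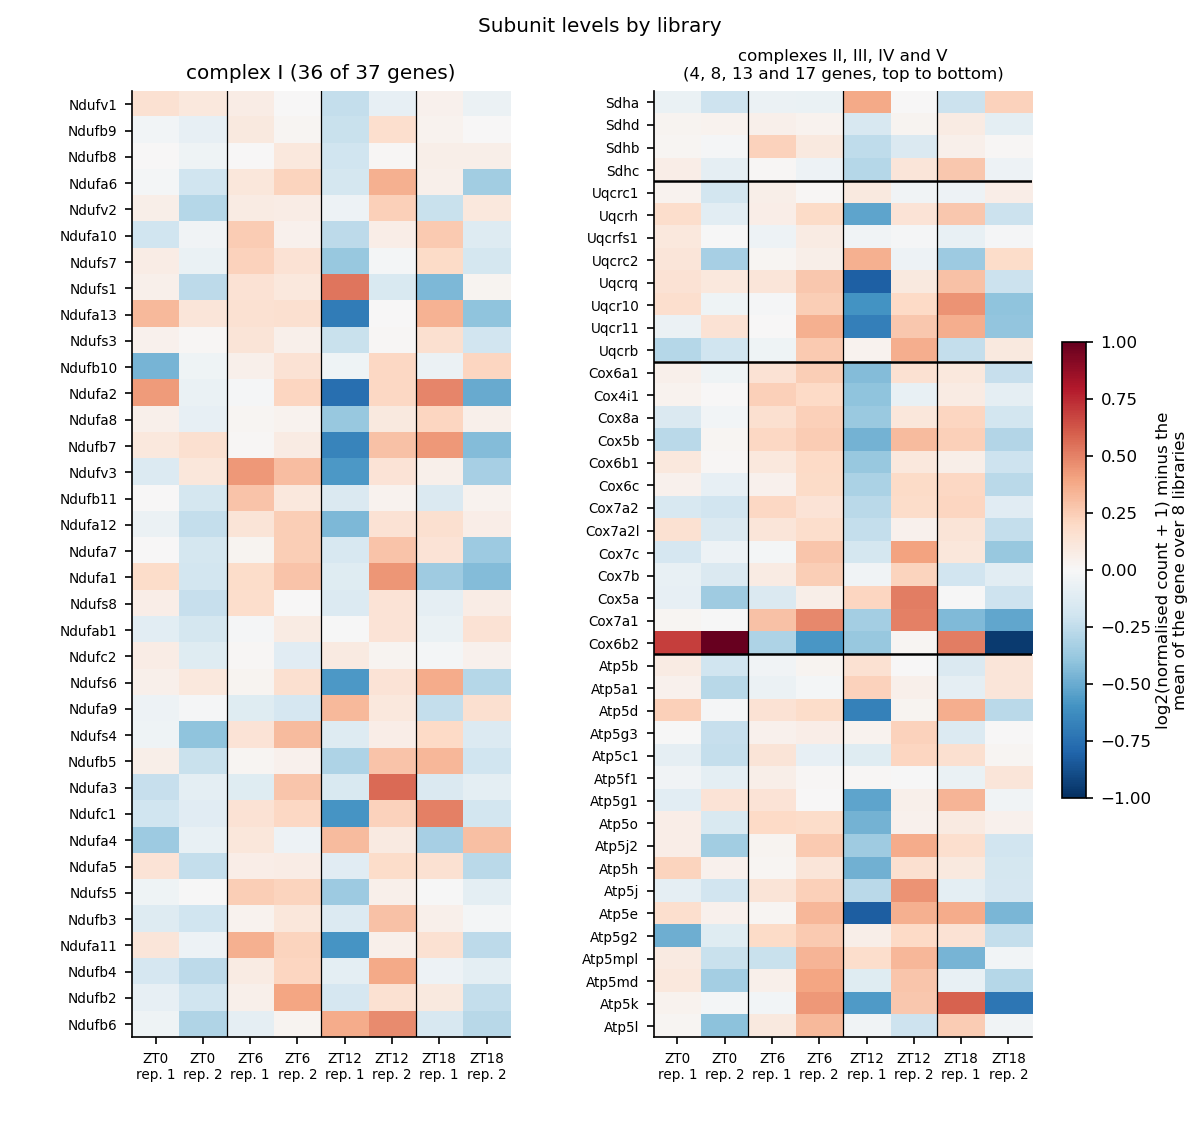
Each row is a subunit gene (78 of the 79) and each column a library. The colour gives log2(normalised count + 1) minus the mean of that gene over the 8 libraries. Genes are ordered by mean level within each complex, and ZT12 replicate 1, the lowest library for 39 of 79 genes, stands apart from ZT12 replicate 2.

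The clearest common pattern was a higher level at ZT6 than at ZT0. Both ZT6 libraries lay above both ZT0 libraries for 42 of 79 subunits (53.2%), against 18.9% of all genes tested, and both lay below for 4 (Cox6b2, Ndufa9, Ndufb7 and Ndufv1), against 18.7%. Without overlap and higher at ZT6 were 22 of 37 genes of complex I, 3 of 4 of complex II, 1 of 8 of complex III, 9 of 13 of complex IV and 7 of 17 of complex V. The differences were small: the median log2 difference was 0.17 over the subunits and 0.01 over all genes, and 69 of 79 were higher at ZT6. By limma the smallest adjusted p among the subunits was 1, so that no single gene passed. After a trend with transcript length and GC content was removed in each library, 26 subunits were higher without overlap, against 19.3% of all genes, and the median difference was 0.09. Without ZT0 replicate 2, the library with the most plasma cell and myeloid markers, the median was 0.07, and without ZT0 replicate 1 it was 0.23.

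In the other comparisons the share of subunits without overlap was mostly at or below the background. ZT12 exceeded ZT0 in 14 subunits (17.7%, against 20.7% of all genes) and was below it in 7 (8.9%, against 20.3%). ZT12 exceeded ZT6 in 6 (7.6%, against 23.5%) and was below it in 19 (24.1%, against 22.2%). In that comparison the median log2 difference was -0.14 and became 0.06 without ZT12 replicate 1. ZT18 exceeded ZT0 in 8 (10.1%, against 13.6%) and was below it in 5 (6.3%, against 13.9%). ZT18 exceeded ZT6 only in Ndufa8 (1.3%, against 19.2%) and was below it in 20 (25.3%, against 18.8%). ZT18 exceeded ZT12 in 4 (5.1%, against 17.8%) and was below it in 7 (8.9%, against 18.7%). The comparisons share libraries, so that they are not independent of each other. The fitted peak fell between 0 and 12 h in 67 of 79 subunits (84.8%), against 51.5% of all genes. With these 4 time points that is the same statement as a higher mean at ZT6 than at ZT18. The number was 55 without ZT18 replicate 2 and 57 without either of the ZT6 libraries.

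Replicates of a time point differed as much as the time points. The median deviation of the 79 subunits from their own means, on the log2 scale, was 0.03 and -0.10 (ZT0), 0.07 and 0.16 (ZT6), -0.22 and 0.14 (ZT12) and 0.08 and -0.13 (ZT18). At ZT12, 67 of 79 subunits were lower in replicate 1 than in replicate 2, with a median difference of -0.40, against a median of 0.01 over all genes. At ZT18, 57 of 79 were higher in replicate 1, with a median difference of 0.20. At ZT6 the median of each complex was above 0 in both libraries, except for complex II in replicate 2 (-0.01). Complex IV ran from -0.34 in ZT12 replicate 1 to 0.20 in ZT6 replicate 2, and complex II, with the steadiest median, from -0.21 to 0.07.

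**Figure D3:**
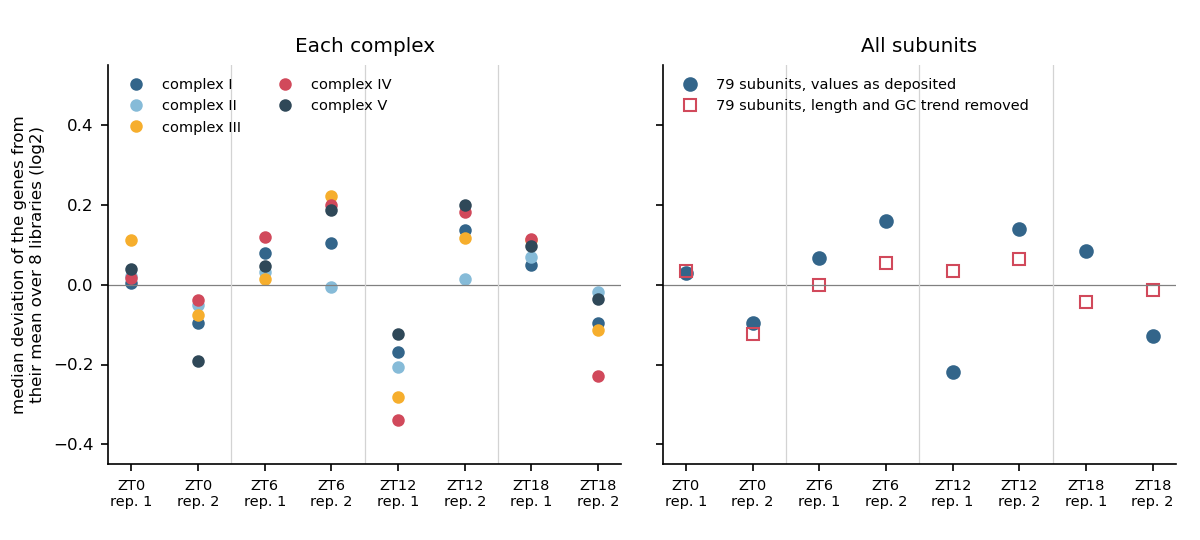
Median log2 deviation of the genes of each complex (left) and of all 79 subunits (right) from their own means, by library. The ZT12 libraries stand on opposite sides of 0, at -0.22 and 0.14 over all subunits, and lie at 0.03 and 0.07 once the trend with length and GC content is removed (open squares).

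In 4 of the libraries these differences went with transcript length, and in some of them with GC content. The subunit transcripts are short, with a median of 742 bases against 2598.5 over all genes tested. In ZT12 replicate 1 the 26 shortest (up to 576.5 bases) had a median deviation of -0.36 and the 27 longest (980 bases and more) of -0.12. In ZT12 replicate 2 these values were 0.24 and 0.03, and in ZT18 replicate 2 they were -0.28 and 0.02. All 294 genes tested that have transcripts this short, the subunits included, showed -0.31 in ZT12 replicate 1 and -0.26 in ZT18 replicate 2. Their medians were 0.02 and 0.09 in the ZT0 libraries and 0.11 and 0.21 in the ZT6 libraries. Higher values at ZT6 than at ZT0 were thus not particular to the subunits among short transcripts. Across the 79 genes, which share each library, Spearman's rho between deviation and length was 0.33 in ZT12 replicate 1, -0.55 in ZT12 replicate 2, -0.55 in ZT6 replicate 2 and 0.61 in ZT18 replicate 2, and lay between -0.20 and 0.08 in the other 4 libraries. With GC content rho was -0.52 in ZT12 replicate 1 and 0.52 in ZT0 replicate 2, and the correction described above removed both trends together. With the trend of length and GC content removed, the median of the subunits in ZT12 replicate 1 was 0.03 in place of -0.22. The part of the muscle and fibroblast markers in the low level of that library was not tested.

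**Figure D4:**
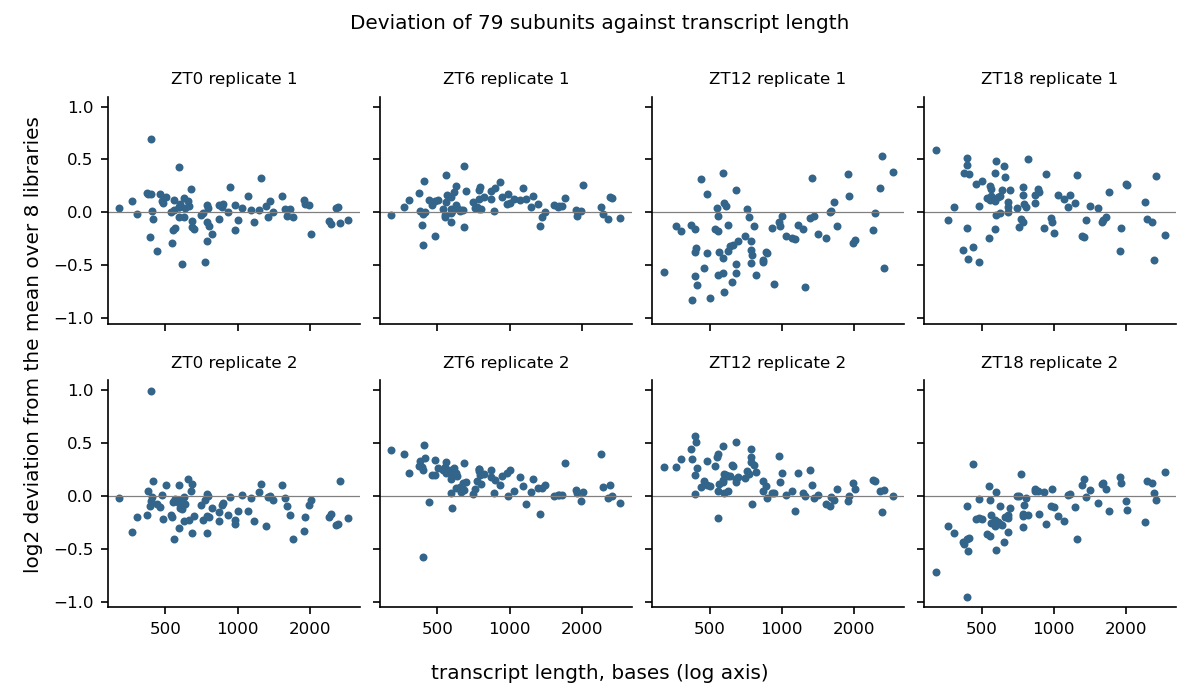
Log2 deviation of each subunit gene from its mean over the 8 libraries against the transcript length in bases (log axis), with 1 panel per library. Short transcripts lie low in ZT12 replicate 1 and ZT18 replicate 2 and high in ZT12 replicate 2 and ZT6 replicate 2.

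In complex I, Ndufs1 (chr1:63143596-63176833), which carries iron-sulfur clusters of the NADH-oxidising arm, had 2087 and 1672 normalised counts (ZT0), 2224 and 2159 (ZT6), 2912 and 1810 (ZT12) and 1476 and 2046 (ZT18). Its highest value lay in ZT12 replicate 1, the library in which 39 of 79 subunits were lowest, and the ZT12 and ZT18 libraries overlapped (log2 difference of ZT18 over ZT12 -0.40 ± 0.25 SE, limma adjusted p = 0.634).

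Ndufs7, which holds the last iron-sulfur cluster before ubiquinone, ranged from 1580 in ZT12 replicate 1 to 2414 in ZT6 replicate 1. Both ZT12 values (1580 and 2025) lay below both ZT6 values (2414 and 2279), at a log2 difference of -0.39 ± 0.19 and an adjusted p of 0.756 by limma. Ndufv1, the subunit that binds NADH, had 3822 and 3697 at ZT0 and 2914 and 3252 at ZT12, without overlap. Its ZT6 values (3617 and 3444) also lay below ZT0, against the direction of most subunits. Its log2 difference for ZT12 over ZT0 was -0.29 (95% interval -0.64 to 0.06, limma adjusted p = 0.557).

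The genes of complex I with the largest amplitudes were accessory subunits. Ndufa1, an X-linked membrane subunit, had 1547 and 1200 normalised counts (ZT0), 1550 and 1662 (ZT6), 1253 and 1854 (ZT12) and 1063 and 1009 (ZT18). Both ZT18 values were below every other library, and the log2 difference of ZT18 over ZT6 was -0.63 ± 0.22 (limma, unadjusted p = 0.018, adjusted p = 0.668). Ndufb6 had 241.4 and 201.5 (ZT0), 232.9 and 253.5 (ZT6), 321 and 346 (ZT12) and 222 and 205 (ZT18). Its ZT12 libraries stood above all 6 others, which was the reverse of the low median of ZT12 replicate 1, yet the difference of ZT18 over ZT12 (-0.64 ± 0.23, limma unadjusted p = 0.021) did not pass adjustment (adjusted p = 0.520). The annotation places Smim27 on the opposite strand over an exon of Ndufb6, and Ndufb6 is among the 16 genes with more than 10% of shared 100-base stretches, so that their reads may be mixed. Ndufa4, named for complex I but since assigned to complex IV, was 741 and 909 at ZT0 and 1190 and 1016 at ZT12, again without overlap (0.42 ± 0.23, limma adjusted p = 0.565).

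In complex II, which is also the succinate dehydrogenase of the tricarboxylic acid cycle, the flavoprotein Sdha had 6611 and 6018 normalised counts (ZT0), 6674 and 6646 (ZT6), 9032 and 6963 (ZT12) and 5974 and 8121 (ZT18). The ZT12 libraries were both above ZT0, but ZT18 replicate 2 was second highest, and the log2 difference of 0.33 ± 0.21 did not pass (limma adjusted p = 0.617). The iron-sulfur subunit Sdhb went the other way, at 5149 and 4704 at ZT6 against 3688 and 3982 at ZT12, with a difference of -0.36 ± 0.16 (limma unadjusted p = 0.045, adjusted p = 0.731). Of the membrane anchors, Sdhc lay between 3097 and 4546 and Sdhd between 4243 and 5024, with fitted amplitudes of 0.07 and 0.06. Sdha and Sdhb form the catalytic head together, and both ZT12 libraries lay above both ZT6 libraries for Sdha and below them for Sdhb.

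In complex III, Uqcrc1 and Uqcrc2 encode the large core proteins and Uqcrfs1 the Rieske iron-sulfur protein. Uqcrfs1 was the steadiest of the 79 genes by the ratio of its highest to its lowest library (1.13), with 4192 to 4739 normalised counts, and Uqcrc1 lay between 5039 and 6125. Uqcrc2 was high in ZT12 replicate 1 (5252) and low in ZT18 replicate 1 (3188) and ZT0 replicate 2 (3248). The small subunit Uqcrq showed the opposite order, with 3951 and 3845 normalised counts (ZT0), 3876 and 4299 (ZT6), 2029 and 3807 (ZT12) and 4370 and 3065 (ZT18). Its difference of ZT12 over ZT6 was -0.55 on the log2 scale with a 95% interval from -1.20 to 0.09 (limma adjusted p = 0.771), which rested mainly on ZT12 replicate 1. Uqcrb, a ubiquinone-binding subunit, was 1135 and 1209 at ZT0 and 1424 and 1787 at ZT12 (0.45 ± 0.20, limma adjusted p = 0.503).

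In complex IV, Cox4i1, the regulatory subunit that binds ATP, had 11634 and 11332 normalised counts (ZT0), 13378 and 12992 (ZT6), 8584 and 10783 (ZT12) and 11978 and 10658 (ZT18). The ZT6 libraries were the highest and ZT12 lay below ZT0 and ZT6 without overlap (ZT12 over ZT6 -0.45 ± 0.19, limma unadjusted p = 0.042, adjusted p = 0.731). Cox5a, which joins Cox4i1 early in assembly, was instead highest at ZT12. It had 889 and 737 (ZT0), 853 and 981 (ZT6), 1090 and 1341 (ZT12) and 941 and 816 (ZT18), so that both ZT12 values exceeded all others. Its log2 difference of ZT12 over ZT0, 0.58 ± 0.19 (95% interval 0.14 to 1.02), had the smallest adjusted p of all subunits in that contrast (limma, 0.407), and 0.261 by DESeq2. A transcript on the opposite strand, Gm26631, overlaps an exon of Cox5a, and 13.6% of its 100-base stretches are shared. Cox5b, which binds zinc, was between 3537 (ZT12 replicate 1) and 6135 (ZT12 replicate 2), its lowest and highest library falling at the same time point.

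Cox7a1 had the smallest p of all subunits in the cosine fit (limma, unadjusted p = 0.031, adjusted p = 0.515). It had 311 and 306 normalised counts (ZT0), 377 and 430 (ZT6), 242 and 437 (ZT12) and 226 and 214 (ZT18). Both ZT18 values were the lowest of the 8, and ZT18 over ZT6 was -0.87 ± 0.29 (limma adjusted p = 0.661). Cox6b2, the least abundant subunit, had 77.5 and 96.1 (ZT0), 38.2 and 31.5 (ZT6), 36.5 and 48.4 (ZT12) and 68.4 and 24.1 (ZT18). It had the largest amplitude, 0.52, but its ZT18 libraries lay far apart, and one of them was the lowest of all 8 (limma adjusted p = 0.715 in the cosine fit).

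Among the other named genes of complex IV, Cox6a1 had 13496 and 12710 normalised counts (ZT0), 14475 and 15452 (ZT6), 9694 and 14503 (ZT12) and 14091 and 11152 (ZT18). Cox8a, Cox7a2 and Cox7b were likewise higher in both ZT6 libraries than in both ZT0 libraries, with 8926 and 9398 against 7208 and 7809 for Cox8a. For Cox6b1 and Cox7a2l the ZT6 and ZT0 libraries overlapped. Cox6a1, Cox6b1, Cox7a2, Cox7a2l and Cox8a were each lower in ZT12 replicate 1 than in ZT12 replicate 2.

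In complex V, Atp5a1 and the catalytic beta subunit Atp5b had the highest normalised counts of all 79 genes, not scaled for length. Atp5b had 27585 and 22750 normalised counts (ZT0), 25430 and 26618 (ZT6), 29068 and 26164 (ZT12) and 23598 and 28394 (ZT18), so that every pair of time points overlapped. Its largest contrast, ZT12 over ZT0, was 0.14 with a 95% interval from -0.39 to 0.66 (limma adjusted p = 0.858). Atp5a1 ranged from 18448 in ZT0 replicate 2 to 26262 in ZT12 replicate 1. Atp5c1, the gamma subunit of the rotating stalk, ranged from 5296 to 7240.

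Atp5d, the delta subunit of the same stalk, varied more. It had 10006 and 8417 normalised counts (ZT0), 9363 and 9671 (ZT6), 5308 and 8653 (ZT12) and 10940 and 7063 (ZT18). The ZT12 values were both below ZT6, but replicates of ZT12 and of ZT18 differed by more than the means of the time points (ZT12 over ZT6 -0.49 ± 0.28, limma adjusted p = 0.779). Atp5g2, whose reads are the least certain, had 945 and 1223 (ZT0), 1515 and 1593 (ZT6), 1382 and 1524 (ZT12) and 1466 and 1124 (ZT18), and its ZT6 libraries exceeded ZT0 by 0.53 ± 0.20 (limma unadjusted p = 0.025, adjusted p = 1). Atp5g1 and Atp5g3, which encode the same mature c subunit, ranged from 3544 to 6477 and from 6003 to 8263.

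The genes whose promoter sites are printed above were not all highest in the same library. Ndufs5, an accessory subunit of complex I with an NRF1 match, had 641 and 657 normalised counts (ZT0), 782 and 768 (ZT6), 511 and 684 (ZT12) and 656 and 618 (ZT18). Both of its ZT6 libraries stood above all others, as a log2 difference of ZT6 over ZT0 of 0.26 ± 0.19 (limma adjusted p = 1). Ndufb4, also of complex I, had 499 and 467 (ZT0), 593 and 652 (ZT6), 525 and 727 (ZT12) and 541 and 525 (ZT18). Its ZT0 libraries were the lowest of all, and its highest value lay in ZT12 replicate 2.

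The remaining small subunits with printed sites differed mainly between replicates. Atp5e, the epsilon subunit of the ATP synthase, had 2677 and 2453 normalised counts (ZT0), 2407 and 2990 (ZT6), 1342 and 3043 (ZT12) and 3073 and 1734 (ZT18). Uqcr11 of complex III showed the same order of extremes, with 1368 in ZT12 replicate 1 and 2839 in ZT18 replicate 1. Atp5h, of the peripheral stalk, lay between 2366 (ZT12 replicate 1) and 3856 (ZT0 replicate 1). None of them passed the cosine fit (limma adjusted p 0.870 for Uqcr11, 0.833 for Atp5e and 0.757 for Atp5h).

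**Figure D5:**
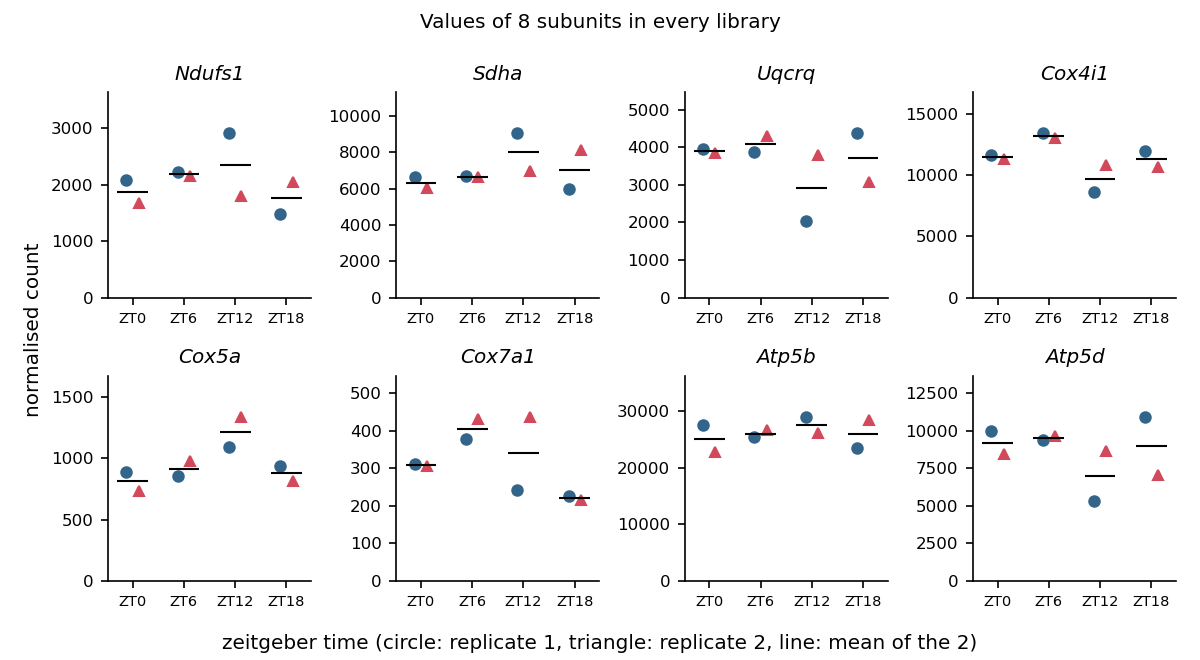
Normalised counts of 8 subunit genes in each library, with circles for replicate 1, triangles for replicate 2 and a line at the mean of both. Cox5a is highest in both ZT12 libraries and Cox7a1 lowest in both ZT18 libraries, whereas the replicates of Uqcrq and Atp5d lie far apart at both ZT12 and ZT18.

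Lists of genes that work with these subunits held no call either, and such a count of 0 is near the background. The 8 limma tests called at most 0.118% of all genes. None of 51 assembly factors, 24 electron carriers and subunits with other names, 16 genes of the tricarboxylic acid cycle, 17 regulators of mitochondrial genes and 78 mitochondrial ribosomal proteins passed in any of the 8 limma tests. The smallest adjusted p over these lists was 0.249, for Coq10b, a coenzyme Q binding protein, at ZT12 against ZT0. Mitochondrial ribosomal proteins were lower at ZT12 than at ZT0 in 66 of 78 genes, with a median of -0.24, whereas 43 of 79 respiratory subunits were higher, with a median of 0.04. The median deviation of these ribosomal genes was -0.31 in ZT12 replicate 1 and -0.01 in ZT12 replicate 2, against 0.07 in both ZT0 libraries. Assembly factors had medians between -0.07 and 0.08 in the 6 contrasts.

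Of the subunits encoded by the mitochondrial genome, the 12 among the 14247 genes moved far more between libraries than their nuclear partners. Their median deviations on the log2 scale were -0.19 and 0.46 (ZT0), 0.69 and 0.60 (ZT6), -1.20 and -0.78 (ZT12) and 1.02 and -0.57 (ZT18). All 12 were lower at ZT12 than at ZT6, with a median of -1.61, against -0.14 for the 79 nuclear subunits. In that contrast 10 of the 12 had an unadjusted limma p under 0.05, but none passed adjustment (smallest adjusted p 0.290). The 12 share each library and are not independent, and the mitochondrial genome took 6.68% to 22.2% of the normalised counts. At ZT6, 10 of the 12 were higher than at ZT0 (median 0.53). For ZT12 against ZT0 the smallest adjusted p was 0.101, for mt-Co2 (limma). The difference between the nuclear and mitochondrial subunits was not tested, and the ZT18 libraries of the mitochondrial group lay 1.49 apart.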

How the data were processed

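The authors aligned paired-end reads with STAR to GRCm38 and normalised them with DESeq2; the annotation, the counting tool and its use of strand are not given in the sources used here. The labels name a VAHTS library kit and the methods of the study an NEBNext kit. The deposited signal of a gene is its read count divided by 1 size factor per library, and whole reads were recovered from it (100% of values within 0.1 of a whole read). The log2 fold changes, test scores and p-values that the authors deposited beside it come from their own DESeq2 comparison and were not used. limma 3.58.1 (R 4.3.3; eBayes with trend) was fitted to log2(normalised count + 1) of 13503 genes with a mean of at least 10, all 8 libraries in 1 fit, which understates changes of low genes. A call is a Benjamini-Hochberg adjusted p under 0.05 over all genes, and the tests are two-sided. The script was tested on simulated data. Named genes were the most abundant and the 2 of largest amplitude in each complex, core subunits and isoforms; 1 of them is not reported here. Members and lists were chosen with earlier results of these data known. Transcript lengths came from GENCODE M21 (79 of 79 matched). Reads numbered 14722342 to 25159440 per library, and a count of 0 allows 2.41 to 3.70 normalised counts (3 reads, counting error only). Alternatives were 21, with edgeR 4.0.16 and DESeq2 1.42.0 on recovered reads among them. For the length and GC trend, a spline was removed in each library.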

Additional observations from a re-analysis of the deposited data

How the results depend on the processing

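No subunit was called in any of 174 combinations of fit and test over the settings given beforehand and 21 alternatives; the smallest adjusted p was 0.209, for Atp5mpl at ZT18 against ZT12 without ZT18 replicate 2 (limma). With length and GC trends removed, the median log2 difference of the subunits for ZT12 against ZT6 went from -0.14 to 0.016, and Sdhd turned from lower to higher in that contrast, at 0.021. Leaving out 1 library at a time gave medians of -0.14 to 0.17 for ZT12 against ZT0, -0.34 (without ZT12 replicate 2) to 0.057 (without ZT12 replicate 1) for ZT12 against ZT6, and -0.13 to 0.16 for ZT18 against ZT12; the ends of these ranges came from leaving out a ZT12 library. Atp5b at ZT12 against ZT0 ranged from -0.000378 (without ZT0 replicate 2) to 0.28, and Sdhc at ZT18 against ZT12 from -0.00975 (without ZT12 replicate 1) to 0.39. Alternatives for the number of subunits above ZT0 without overlap at ZT6 were chosen after seeing the data. There were 26 with the length and GC trends removed, against 19.3% of all genes. Scaling outside the mitochondrial genome gave 33 (against 14.9% of all genes), and quantile normalisation gave 34 (against 18.5% of all genes). With 1 library left out there were 45 (without ZT0 replicate 2) to 66 (without ZT0 replicate 1). The all-gene share then rises to between 29.7% and 39.2%. The cause of these changes was not tested. The labels do not say whether equal replicate numbers share a litter or day. Deviations of equal numbers correlated at -0.293 to 0.217 between time points. These values cannot decide it, since the length and GC trends of single libraries enter them too. With the replicate block 0 subunits were called. The block cannot change a fold change, because every time point holds 1 library of each number. The ZT6 against ZT0 median of 0.17 was therefore the same by design. With 2 libraries per time point, the median half-width of a 95% interval for 1 gene was 0.49 (log2).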
